A study of Mus musculus with 112 samples.

Results

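Gene-distant intergenic regions are stretches of the mouse genome in which the nearest annotated gene of any kind lies more than 50 kb away. They were drawn from the autosomal CpG positions of 13 tables of DNA methylation (DNAme), made by reduced representation bisulfite sequencing (RRBS), in which DNA is cut at MspI (CCGG) and TaqI (TCGA) sites before bisulfite conversion and sequencing. Positions more than 50 kb from any of 55413 GENCODE vM21 genes (mm10) were joined where neighbours lay at most 100 bp apart, and runs of 3 or more cytosines were kept as regions. This gave 4050 gene-distant regions of 89812 regions in F0 sperm (4.51%), 2825 of 56852 in F1 sperm (4.97%) and 5073 of 113328 in F1 brain (4.48%). No measured value entered the choice beyond the requirement that a cytosine had a value in at least 4 libraries of every group.

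The study asked how paternal cigarette smoke (CS) exposure and loss of the transcription factor NRF2 bear on DNAme of sperm and of offspring, in 112 libraries. F0 males were C57BL/6J mice or Nrf2-/- mice on that background, 6 to 7 weeks old at the start of 60 days of CS or no exposure. Cauda epididymal sperm was taken within 3 days of the last exposure. WT and Nrf2-/- males were separate Jackson stocks, so genotype and stock cannot be told apart. The F0 sperm groups were control WT (n = 10), smoked WT (n = 9), smoked WT after recovery periods 1, 2 and 3 without CS, spanning 28 to 171 days (n = 9, 10 and 10), control Nrf2-/- (n = 10) and smoked Nrf2-/- (n = 9). No control WT sperm of the recovery ages was part of the design, so time without CS and age cannot be told apart. F1 sperm came from sons of control (n = 6) and smoked (n = 7) WT sires, and F1 brain was prefrontal cortex of sons of 4 kinds of sires, WT and Nrf2-/- with and without CS (n = 8 each). All sires were bred to CAST/EiJ females, so the sons, taken at 14 to 17 weeks, carried 1 maternal CAST/EiJ genome, and sons of Nrf2-/- sires were Nrf2+/-. Nrf2-/- is a whole-body deletion of Nfe2l2, the gene on chromosome 2 that encodes NRF2.

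Most of the mouse genome far from genes is highly methylated in sperm and in somatic tissue, and much of it consists of copies of transposable elements. DNAme at CpGs is placed anew in male germ cells before birth, is largely erased from the paternal genome after fertilisation and is placed again in the embryo. Stretches of low DNAme far from genes are often CpG islands or distal enhancers, whose DNAme differs between cell types. NRF2 drives the transcription of antioxidant genes, and CS is a source of oxidants.

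Marker promoters were checked against the tissue labels. Promoters of maternally methylated imprinted genes with measured cytosines (3 of 8 in sperm, 4 of 8 in brain) had DNAme of 0.687% to 1.76% in control F0 sperm, 0% to 0.939% in control F1 sperm and 26.3% to 37.99% in control F1 brain. Promoters of germline genes (5 of 6, 2 of 6 and 5 of 6 measured) had DNAme of 0.520% to 0.750%, 0.994% to 1.59% and 65.4% to 90.8% in the same order. Libraries held values at 800578 to 1855546 positions in F0 sperm, 510212 to 1429060 in F1 sperm and 1332684 to 1711088 in F1 brain. The number of reads behind each value is unknown.

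Regions called between groups are shown first. Every sequence is the mm10 (GRCm38.p6) reference on the forward strand, with up to 20 bases on each side and with the measured CpGs in capitals. These 5 regions were each among the 3 largest changes in their direction that were called in a comparison of genotypes or of recovery in F0 sperm.
chr13:87402599-87402742: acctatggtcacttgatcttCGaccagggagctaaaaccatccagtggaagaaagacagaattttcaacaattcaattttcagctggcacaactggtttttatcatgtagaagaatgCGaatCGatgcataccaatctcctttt
chr2:74358769-74358842: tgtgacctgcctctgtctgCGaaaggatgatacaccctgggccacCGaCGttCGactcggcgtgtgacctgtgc
chr2:71622651-71622770: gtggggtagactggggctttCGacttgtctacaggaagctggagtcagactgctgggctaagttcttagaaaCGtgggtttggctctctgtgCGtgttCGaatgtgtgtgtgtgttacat
chr6:11464797-11464865: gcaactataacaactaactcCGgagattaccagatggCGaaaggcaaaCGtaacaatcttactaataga
chr4:153717244-153717508: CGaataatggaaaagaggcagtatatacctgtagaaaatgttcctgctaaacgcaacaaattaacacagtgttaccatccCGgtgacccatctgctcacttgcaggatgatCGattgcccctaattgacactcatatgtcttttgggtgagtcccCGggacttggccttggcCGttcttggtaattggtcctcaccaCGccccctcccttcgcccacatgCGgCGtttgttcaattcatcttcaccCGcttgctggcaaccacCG
The next shows, from a set of 823 regions of like sequence, the member with the most partners.
chr4:90657676-90657795: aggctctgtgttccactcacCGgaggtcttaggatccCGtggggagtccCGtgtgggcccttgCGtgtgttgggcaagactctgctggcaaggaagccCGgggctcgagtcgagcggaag
The following are the region farthest from any gene, the region with the most cytosines, and the region with the largest spread between control WT F0 sperm libraries.
chr1:114587579-114587687: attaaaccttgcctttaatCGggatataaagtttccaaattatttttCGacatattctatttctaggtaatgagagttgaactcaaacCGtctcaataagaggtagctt
chr8:88454203-88454463: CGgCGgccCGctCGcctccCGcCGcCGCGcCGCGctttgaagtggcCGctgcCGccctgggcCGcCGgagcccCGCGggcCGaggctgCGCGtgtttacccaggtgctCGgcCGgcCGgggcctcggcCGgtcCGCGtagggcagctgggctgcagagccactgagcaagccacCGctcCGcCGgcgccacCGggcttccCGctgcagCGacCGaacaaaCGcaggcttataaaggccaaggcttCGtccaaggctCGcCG
chr5:82706017-82706080: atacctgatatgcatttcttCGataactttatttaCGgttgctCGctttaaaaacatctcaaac
The last pair shows a region unmethylated in sperm and methylated in brain, and then a region with the opposite pattern.
chr14:114636060-114636197: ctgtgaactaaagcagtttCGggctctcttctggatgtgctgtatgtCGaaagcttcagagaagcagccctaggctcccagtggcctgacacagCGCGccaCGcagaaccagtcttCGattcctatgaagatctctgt
chr13:72288953-72289013: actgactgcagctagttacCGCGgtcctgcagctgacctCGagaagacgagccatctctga

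Gene-distant regions were short and sparse. They held a median of 4 cytosines over 72 bp in F0 sperm, 3 over 62 bp in F1 sperm and 4 over 73 bp in F1 brain, and at most 52 cytosines in F0 sperm. In F0 sperm, 17216 of the 42486 gene-distant cytosines fell in a region. The median distance to a gene was 85.1 kb and the largest 623 kb, and 1542 of the 4050 F0 regions lay more than 100 kb from a gene. A second annotation, RefSeq, placed a gene within 50 kb of some of these regions, so that 2709 of the 4050 were gene-distant by both. Of the F0 sperm regions, 87.9% overlapped a gene-distant region of F1 brain and 44.9% one of F1 sperm. Every autosome held members, from 67 in F0 sperm on chromosome 19 to 371 on chromosome 1.

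Their sequence differed from that of regions within 50 kb of a gene, here called gene-near (83596 autosomal regions in F0 sperm). In the 201-bp window around each region's centre, median GC content was 46.8% against 53.7%, and the ratio of observed to expected CpGs was 0.49 against 0.57. Soft-masked bases, which the reference marks as repeats, made up over 50% of the window in 30.9% of gene-distant and 8.93% of gene-near regions. A CCGG lay in 45.3% of gene-distant windows against 65.97% of gene-near windows, and a TCGA in 74.3% against 57.5%. Among gene-distant regions, 1142 of 4050 (28.2%) fell into 67 groups of similar sequence. Gene-near regions were not grouped in this way, so no comparison was made. The largest such group had 823 regions on 19 chromosomes, with a median of 96.5% of bases soft-masked. Members of such a group share sequence and are not independent regions, and whether reads were placed at the right copy was not tested. The corresponding largest group had 1153 regions in F1 brain and 57 in F1 sperm.

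Gene-distant regions were more highly methylated than gene-near regions in every control library. In control WT F0 sperm, mean DNAme was 66.99% ± 1.07 (SD, n = 10) over gene-distant and 42.99% ± 0.701 over gene-near regions, higher in 10 of 10 libraries (exact sign-flip permutation test, two-sided, p = 0.00195, adjusted p = 0.0117). In F1 sperm of control WT sires it was 52.5% ± 2.59 against 40.1% ± 2.32 (SD, n = 6, 6 of 6 libraries, exact permutation p = 0.0313, adjusted p = 0.0469). In F1 brain of control WT sires it was 76.4% ± 0.498 against 50.8% ± 0.681 (SD, n = 8, 8 of 8 libraries, exact permutation p = 0.00781, adjusted p = 0.0156). These p-values are the smallest that the numbers of libraries allow and were adjusted over the 12 comparisons of level and spread.

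The difference lay in the share of unmethylated regions. In control WT F0 sperm 21.2% of gene-distant regions had DNAme below 25%, 17.8% had 25% to 75% and 61.1% had more than 75%, against 52.3%, 7.33% and 40.4% of gene-near regions. Control F1 sperm had 32.5%, 27.1% and 40.4% of its gene-distant regions in these classes. Control F1 brain had 5.30%, 26.3% and 68.4%, so that few gene-distant regions were unmethylated there. Near genes, 35.0% of regions in brain were below 25%. By distance, mean DNAme in control WT F0 sperm was 40.4% for regions overlapping a gene, 40.5% up to 10 kb, 62.03% from 10 to 50 kb, 66.9% from 50 to 100 kb, 67.8% from 100 to 200 kb and 64.8% from 200 to 500 kb. Regions 10 to 50 kb from a gene were thus within 5 points of those 50 to 100 kb away. In control F1 sperm the same 6 classes had 38.9%, 37.7%, 55.5%, 53.9%, 51.3% and 49.97%, so that regions beyond 50 kb were below those at 10 to 50 kb. In control F1 brain they had 47.1%, 52.1%, 70.6%, 75.1%, 78.1% and 80.6%.

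**Figure D1:**
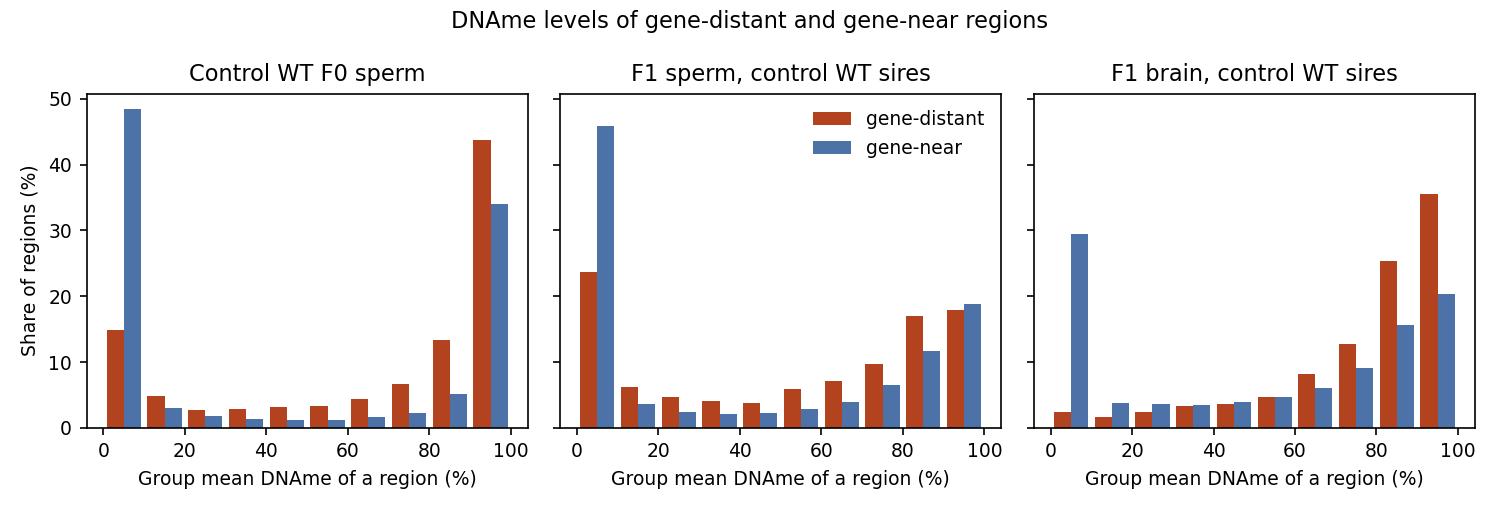
Share of regions (y axis, %) by group mean DNAme of the region (x axis, %, in steps of 10) for gene-distant (red) and gene-near (blue) regions in control WT F0 sperm, control F1 sperm and control F1 brain. Gene-near regions peak at the lowest level in all 3 panels, and only 5.30% of gene-distant regions in brain lie below 25%.

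The region farthest from any gene was chr1:114587599-114587667, 623 kb from the long non-coding RNA gene 9330185C12Rik. Its DNAme in control WT F0 sperm ran from 30.9% over a median of 85.6% to 94.4%, in smoked WT sperm from 16.7% over 83.9% to 96.9%, and in control Nrf2-/- sperm from 82.6% over 91.2% to 94.7%. Smoked Nrf2-/- sperm also held a library at 42.5%, so low libraries occurred with and without CS and in both genotypes. In control F1 sperm it was 18.1% ± 8.38 (SD, n = 6), and in control F1 brain 78.7% ± 2.20 (SD, n = 8). The second farthest, chr1:114500210-114500254, at 536 kb from the same gene and soft-masked throughout, had 56.4% ± 4.70 (SD, n = 8) in control WT F0 sperm and 62.1% ± 2.89 (SD, n = 8) in control F1 brain.

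The regions with the most cytosines were unmethylated. At chr8:88454203-88454463, 61.98 kb from a pseudogene and 66.9 kb from Nkd1, which encodes an inhibitor of Wnt signalling, 52 cytosines of 36 CpGs had a mean DNAme of 0.428% ± 0.397 (SD, n = 10) in control WT F0 sperm, and the means of the other F0 groups lay between 0.462% and 0.799%. In F1 brain, where 56 cytosines of the same stretch were measured, the group means were 0.583% to 1.16%. A stretch of 39 cytosines on chromosome 18, 92.6 kb from a pseudogene and 105 kb from Dtna, which encodes a dystrobrevin, stood at 0.805% ± 0.777 (SD, n = 8) in control WT F0 sperm. In control F1 brain it was part of a longer region of 77 cytosines, which had 1.26% ± 1.25 (SD, n = 8). Both are CpG-dense stretches that were unmethylated in both tissues, unlike most gene-distant regions.

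Libraries of 1 group differed more at gene-distant than at gene-near regions among those with DNAme below 25%. Spread was taken as the mean absolute distance of a library from the mean of the other libraries of its group. Among regions with DNAme below 25% it was 3.44 against 1.62 percentage points in control F0 sperm, 3.91 against 2.19 in F1 sperm and 3.77 against 1.58 in F1 brain, larger at gene-distant regions in every control library (exact sign-flip permutation test, adjusted p = 0.0117, 0.0469 and 0.0156). The class was not alike within, since of all regions in control F0 sperm 10.8% of gene-distant but 44.9% of gene-near regions were below 5%, and windows of the class held a median of 6 CpGs at gene-distant and 12 at gene-near regions. The parts of level and CpG number in this difference were not tested. At intermediate DNAme of 25% to 75%, the spread was 7.97 against 7.93 points in F0 sperm (adjusted p = 0.600 by the same permutation test) and 9.06 against 9.87 in F1 sperm (adjusted p = 0.0833). In brain it was smaller at gene-distant regions, 6.31 against 6.97 points, in 8 of 8 libraries (adjusted p = 0.0156). Above 75% it was 3.76 against 3.39 points in F0 sperm (larger in 9 of 10 libraries, adjusted p = 0.0156), 5.70 against 5.60 in F1 sperm (adjusted p = 0.600) and 3.56 against 3.62 in brain (adjusted p = 0.113).

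**Figure D2:**
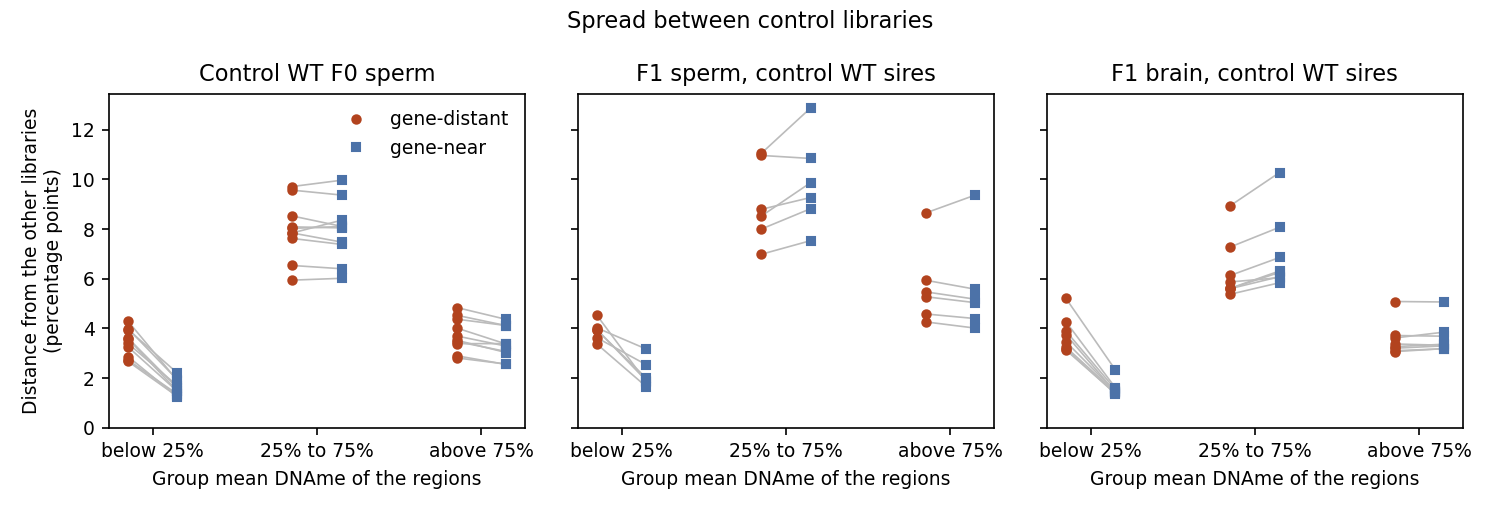
Mean absolute distance of each control library from the mean of the other libraries of its group (y axis, percentage points), in 3 classes of group mean DNAme, at gene-distant (red circles) and gene-near (blue squares) regions, with a grey line joining the values of 1 library. Below 25% every line falls from gene-distant to gene-near (3.44 to 1.62 points on average in F0 sperm), and in the other classes the symbols lie close together.

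A few short regions ran from nearly unmethylated to fully methylated between control mice of the same genotype. An SD above 20 points in the control group was found for 69 of 4050 regions in F0 sperm (1.70%), 64 of 2825 in F1 sperm (2.27%) and 9 of 5073 in brain (0.177%), against 0.723%, 1.27% and 0.392% of gene-near regions. These shares were not tested and moved with level, since among regions of 25% to 75% DNAme they were 6.40% of gene-distant and 5.76% of gene-near regions in F0 sperm, 6.79% and 6.90% in F1 sperm and 0.675% and 1.48% in brain. The 69 had a median length of 38 bp. Among regions with at least 8 control libraries, the largest SD was that of chr5:82706037-82706060, 92.9 kb from the microRNA gene Mir1187, with 41.3% ± 47.8 (SD, n = 10) in control WT F0 sperm, where it ran from 0% over a median of 10.1% to 100%. In smoked WT sperm its highest value was 42.9%, in recovery groups 1 to 3 the highest values were 26.3%, 21.6% and 35.1%, in control Nrf2-/- sperm 76.7% and in smoked Nrf2-/- sperm 26.2%. The second, chr13:79594668-79594695, 140 kb from a small nuclear RNA gene, had 29.1% ± 43.8 (SD, n = 8) in control WT F0 sperm, with a median of 7.26% and a highest value of 100%, and at most 27.5% in any library of the other F0 groups. Low values at the 69 regions were concentrated in a few libraries. Control WT columns 5, 8 and 6 of the table were more than 30 points below the group median at 23, 19 and 11 of them, and each of the other 7 columns at no more than 7. In F1 sperm, control columns 3 and 6 were that far below at 27 and 12 of 64.

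Smoke exposure did not move the mean DNAme of gene-distant regions in F0 sperm beyond the spread between libraries. Mean DNAme was 66.4% ± 1.52 (SD, n = 9) in smoked WT sperm, against 66.99% in control WT sperm, a difference of -0.628 points (exact permutation test, two-sided, p = 0.337, adjusted over 12 comparisons p = 0.505). Without the smoked WT library of 62.6% the difference was -0.157 points (exact permutation p = 0.717). In recovery groups 1, 2 and 3 it was 66.7% ± 0.528, 66.9% ± 0.905 and 67.1% ± 0.424, with differences of -0.253, -0.0948 and 0.154 points (exact permutation, adjusted p = 0.708, 0.832 and 0.794). The gap between gene-distant and gene-near regions, 24.002 points in control WT sperm, was 23.8, 23.9, 24.1 and 24.1 points in these 4 groups (adjusted p = 0.790 each, exact permutation test).

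No single gene-distant region differed between smoked and control WT sperm, nor between recovery groups 1 or 2 and control, in a limma model fitted over all regions of the tissue (called at a p below 0.05 after adjustment over all of them). Across all regions this model called 0.00111% in smoked WT, 0.00334% in recovery 1 and 0.00223% in recovery 2. At an unadjusted p below 0.05, 152, 208 and 162 of the 4050 gene-distant regions passed (3.75%, 5.14% and 4%), against 4.22%, 5.27% and 4.34% of all regions. The smallest p in smoked WT sperm was at chr5:26179572-26179617, 58.2 kb from Gm10220, with 93.3% ± 3.94 (SD, n = 10) in control and 98.2% ± 1.08 (SD, n = 9) in smoked sperm (limma, adjusted p = 1). For recovery 1 and for recovery 2 it was at chr2:133742213-133742250, 158 kb from a small nuclear RNA gene and 755 kb from Hao1, which encodes a peroxisomal hydroxyacid oxidase. There control sperm had 93.4% ± 2.77 (SD, n = 8), recovery 1 sperm 98.2% ± 3.24 (SD, n = 9) and recovery 2 sperm 98.2% ± 2.02 (SD, n = 10), with limma adjusted p of 0.773 and 0.898. All WT comparisons in F0 sperm share the control WT libraries.

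Recovery 3 differed from control WT sperm at 1 gene-distant region, of 4050 (background 0.0234% of all regions). At an unadjusted p below 0.05, 274 passed (6.77%, against 6.25% of all regions). The called region was chr4:153717244-153717508, a stretch of 12 cytosines 159 kb from a small nucleolar RNA gene and 234 kb from Ajap1, which encodes an adherens junction protein. Control WT libraries ran from 16.4% over a median of 26.4% to 37.0%, smoked WT libraries from 23.4% to 31.1%, recovery 1 from 14.03% to 29.7%, recovery 2 from 13.1% to 26.6% and recovery 3 from 9.69% over 15.2% to 23.01%. The group means were 26.4%, 27.4%, 20.2%, 19.1% and 15.1%, and the libraries of recovery 3 overlapped the lower control libraries. The recovery 3 difference was -11.3 points (SE 2.29, limma, adjusted p = 0.0321), and it stayed below an adjusted p of 0.05 in 6 of the 20 fits that left out 1 library, and was above it in a fit of only these 2 groups. The same region was higher in smoked Nrf2-/- sperm, at 37.1% ± 4.45 (SD, n = 8), by 10.7 points (SE 2.42, limma, adjusted p = 0.0204, kept in 13 of 19 fits without 1 library), and stood at 34.002% ± 6.89 (SD, n = 10) in control Nrf2-/- sperm. Within the region, the cytosine at 153717325 went from 50.3% in control to 29.8% in recovery 3 and that at 153717508 from 32.6% to 13.96%, while that at 153717356 stood at 4.99% and 3.42%. In the sons' brain, over 14 cytosines, its means were 24.9% and 27.5% after control and smoked WT sires, and 28.2% and 19.9% after control and smoked Nrf2-/- sires.

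By size alone, many more regions differed. Counted were regions that changed by more than 5 points between group means, with at least 1 in 3 of their cytosines also changing by more than 5 points, the size the study used for a differentially methylated region (DMR), with no test. The study scored only regions longer than 50 bp with 3 or more CpGs. Here 2474 of the 4050 were longer than 50 bp, and cytosines of both strands were counted. For smoked WT sperm these were 405 of 4050 gene-distant regions (10%, background 5.27%), 124 higher and 281 lower. With a change over 10 points, 63 were left, and the share over all regions was not taken at that size. For recovery 1, 2 and 3 they were 455 (11.2%, background 5.88%), 364 (8.99%, background 4.8%) and 536 (13.2%, background 6.75%). The share depended on the level in control sperm. Among regions with 25% to 75% DNAme in control WT sperm, 25.03% of gene-distant and 25.02% of gene-near regions were such DMRs in smoked WT sperm, and below 25% DNAme the shares were 6.53% and 1.42%. The spread between control libraries was also alike in the first of these classes and larger at gene-distant regions in the second.

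Intermediate gene-distant regions moved less than intermediate gene-near regions in the recovery 2 group, in a split by level, taken from the mean over all F0 groups, that was chosen after seeing the data. Their mean was 54.1% ± 1.41 in control WT and 54.05% ± 1.45 in recovery 2 sperm, and the change at gene-distant regions exceeded that at gene-near regions by 0.884 points (exact permutation p = 0.00476, adjusted over 36 tests p = 0.0343). In the 3 other WT groups this difference of changes was 0.521 points in smoked, 0.182 in recovery 1 and 0.362 in recovery 3 sperm (adjusted p = 0.103, 0.704 and 0.588, exact permutation test).

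Nrf2-/- sperm had lower DNAme than WT sperm at gene-distant regions relative to gene-near regions. Mean DNAme at gene-distant regions was 66.1% ± 0.821 (SD, n = 10) in control and 65.99% ± 1.12 (SD, n = 9) in smoked Nrf2-/- sperm, differences of -0.845 and -1.01 points from control WT sperm, which by itself did not pass (exact permutation, adjusted p = 0.154 each). Over regions longer than 50 bp, an alternative chosen after seeing the data, they were -1.05 and -0.952 points (exact permutation, adjusted p = 0.0348 each). The gap between gene-distant and gene-near regions was 23.1 ± 0.475 points in control Nrf2-/- sperm against 24.002 ± 0.416 in control WT sperm, a difference of -0.875 points, with 7 of 10 Nrf2-/- libraries below every control WT library (exact permutation p = 0.000509, adjusted p = 0.00611). In smoked Nrf2-/- sperm the gap was 23.2 ± 0.540 points, a difference of -0.772 points (exact permutation p = 0.00326, adjusted p = 0.0196). Smoked and control Nrf2-/- sperm differed by 0.103 points in this gap (adjusted p = 0.790 by the same permutation test) and by -0.163 points in the mean (adjusted p = 0.794). By cut site, control Nrf2-/- sperm differed from control WT sperm by -1.80 points at CCGG and -0.661 at TCGA (exact permutation, adjusted over 36 tests p = 0.142 and 0.422). Nrf2-/- F0 libraries carried lower facility numbers than the WT libraries in the column names. Genotype, mouse stock and that run of numbers therefore cannot be told apart.

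In means over regions, repeat-rich regions carried the genotype difference. The split by soft-masked bases was chosen after seeing the data. Over the 1252 gene-distant regions whose window was over 50% soft-masked, control WT libraries lay between 69.5% and 72.02% (70.9% ± 0.788, SD, n = 10) and control Nrf2-/- libraries between 65.3% and 71.2% (68.1% ± 1.56, SD, n = 10), with 9 of the 10 below every control WT library. The difference was -2.78 points (exact permutation p = 0.000173, adjusted over 24 tests p = 0.00208). Smoked Nrf2-/- libraries lay between 66.3% and 70.1% (68.4% ± 1.32, SD, n = 9), -2.45 points from control WT sperm, with 7 of 9 below every control WT library (exact permutation p = 6.50e-05, adjusted p = 0.00156). Against smoked WT sperm, 70.3% ± 1.17, smoked Nrf2-/- sperm was lower by -1.85 points (exact permutation p = 0.00712, adjusted over 5 tests p = 0.0356). The other 4 genotype tests within smoked mice did not pass, with -0.380 points for the gene-distant mean, -0.593 for the gap to gene-near regions, -1.42 for regions of 25% to 75% and 0.266 for windows at most 50% soft-masked (exact permutation, adjusted p = 0.696, 0.118, 0.180 and 0.730). In bulk sperm, fewer methylated cells and fewer methylated copies of a repeat per cell cannot be told apart.

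The remaining 2798 regions did not show this. Control WT sperm had 65.3% ± 1.24 and control Nrf2-/- sperm 65.2% ± 0.566, a difference of -0.0150 points (exact permutation p = 0.973), and smoked Nrf2-/- sperm differed by -0.386 points (p = 0.484 by the same exact test). The difference between the 2 kinds of window was itself past the threshold, with the change at repeat-rich regions exceeding that at the others by -2.77 points in control and -2.06 in smoked Nrf2-/- sperm (exact permutation p = 5.41e-05 and 1.08e-05, the latter the smallest these libraries can give). Gene-near repeat-rich regions also fell, by 1.25 points in control Nrf2-/- sperm, from 73.4% to 72.1% (exact permutation p = 0.00194), and gene-distant repeat-rich regions fell by 1.53 points more than these (exact permutation p = 0.000184, adjusted over 12 tests p = 0.00110). In smoked Nrf2-/- sperm the excess was -1.21 points (p = 4.33e-05, adjusted p = 0.000520, exact permutation test). Smoke exposure and recovery in WT mice moved the repeat-rich regions by -0.593, -0.616, 0.199 and -0.0568 points (exact permutation p = 0.211, 0.109, 0.632 and 0.873).

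**Figure D3:**
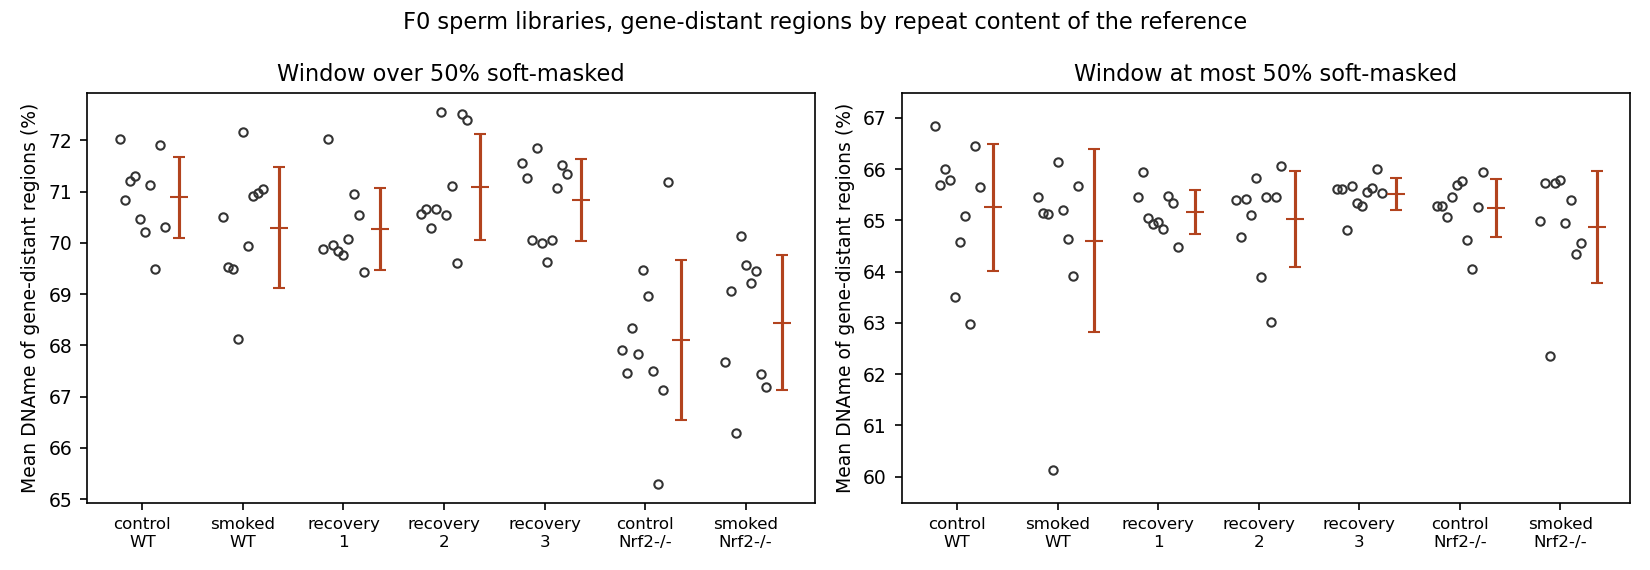
Mean DNAme of gene-distant regions in each F0 sperm library (y axis, %, not starting at 0, equal span in both panels) for windows over 50% soft-masked (left) and at most 50% soft-masked (right), by group, with open circles for libraries and a red bar for mean ± SD. On the left, 9 of 10 control Nrf2-/- and 7 of 9 smoked Nrf2-/- libraries lie below all control WT libraries, and on the right the genotypes overlap.

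Intermediate DNAme and repeat content went together in this difference. Of 721 gene-distant regions with 25% to 75% DNAme on the mean of all F0 groups, 351 had a window over 50% soft-masked. The 721 had 54.1% ± 1.41 in control WT and 50.96% ± 2.05 in control Nrf2-/- sperm, -3.18 points (exact permutation p = 0.000704, adjusted over 36 tests p = 0.0253). In smoked Nrf2-/- sperm they had 51.7% ± 1.85, -2.41 points (exact permutation p = 0.00602, adjusted p = 0.0722). Relative to gene-near regions of the same level, these changes were -2.26 and -1.71 points (exact permutation p = 1.08e-05 each, the smallest possible, adjusted p = 0.000195). Among intermediate regions, the 351 repeat-rich ones differed by -5.39 and -4.28 points in control and smoked Nrf2-/- sperm, and the 370 others by -1.13 and -0.688 points (exact permutation p = 0.160 and 0.416). Repeat-rich gene-near regions of this level were also lower, with -4.14 and -3.20 points over 1493 regions (exact permutation p = 6.50e-05 and 1.08e-05), while the 4537 other gene-near regions differed by 0.136 and 0.118 points (p = 0.875 and 0.878 by the same permutation test). Among repeat-rich regions of this level, the change at gene-distant regions minus that at gene-near regions was -1.25 and -1.09 points, a split also chosen after seeing the data (exact permutation p = 0.00193 and 0.00202, adjusted over both p = 0.00202). Relative to gene-near regions, those above 75% moved by -0.625 and -0.429 points (exact permutation, adjusted p = 0.00117 and 0.0222), and those below 25% by -0.264 and -0.150 points (adjusted p = 0.588 and 0.777).

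The 823 regions of like sequence were mostly soft-masked themselves and are described without a test. Their mean DNAme ran from 74.6% to 77.4% in control WT sperm (76.1% ± 0.843, SD, n = 10), from 69.8% to 76.5% in control Nrf2-/- sperm (73.0% ± 1.80, SD, n = 10) and from 71.2% to 75.1% in smoked Nrf2-/- sperm (73.5% ± 1.41, SD, n = 9). Of the Nrf2-/- libraries, 8 of 10 control and 6 of 9 smoked lay below every control WT library. Smoked WT and recovery 1, 2 and 3 sperm had means of 75.4%, 75.5%, 76.4% and 76.1%. Single copies need not follow the mean, and the copy with the most partners, chr4:90657696-90657775 (178 partners, 113 kb from a pseudogene), had 95.4% ± 2.81 (SD, n = 10) in control WT, 94.6% ± 6.41 (SD, n = 10) in control Nrf2-/- and 94.2% ± 3.62 (SD, n = 8) in smoked Nrf2-/- sperm.

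Single regions called between genotypes were few and mostly lower in Nrf2-/- sperm. The limma model called 29 of 4050 gene-distant regions in control Nrf2-/- sperm (0.716%, against a background of 0.347% of all regions), 4 higher and 25 lower. In smoked Nrf2-/- sperm it called 20 (0.494%, background 0.287%), 4 higher and 16 lower. These counts were 14 and 6 where only the 2 groups compared were fitted and 48 and 32 where cytosines were joined at most 300 bp apart, and the second was 12 without smoked Nrf2-/- library 6. Joining at most 300 bp apart makes another set of regions, and shares over all regions were not taken at these settings. At an unadjusted p below 0.05, 522 and 436 passed (12.9% and 10.8%, against 7.80% and 7.71% of all regions). Both lists share control WT libraries, and 11 regions were in both, 37.9% of the first and 55% of the second. The overlap over all called regions was not counted, so these shares are no result about gene-distant regions. The median size of change among called gene-distant regions was 15.2 points in control and 10.8 in smoked Nrf2-/- sperm. The median soft-masked share of these regions' own bases was 25.2% and 24.97%, so calls were not confined to repeat-rich regions. Between smoked and control Nrf2-/- sperm no gene-distant region was called (background 0.00557%), and 241 had an unadjusted p below 0.05 (5.95%, against 5.96% of all regions). By size alone, 711 gene-distant regions (17.6%, background 8.08%), 641 (15.8%, background 7.65%) and 520 (12.8%, background 6.78%) changed in these 3 comparisons. The median change over all 4050 regions was -0.289, -0.540 and -0.167 points, against 0, -0.110 and -0.104 over all regions.

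At chr13:87402619-87402722, soft-masked throughout and 54.1 kb from the microRNA gene Gm24935, DNAme was lower in Nrf2-/- sperm with no overlap between groups. Control WT libraries ran from 72.2% over a median of 76.8% to 84.8%, control Nrf2-/- libraries from 44.6% over 53.7% to 65.03% and smoked Nrf2-/- libraries from 43.0% over 51.99% to 61.3%. The control Nrf2-/- difference was -23.9 points (SE 2.53, limma, adjusted p = 3.59e-10). All 4 cytosines were lower, by group means of 58.9% to 36.5% at 87402619, 87.8% to 66.2% at 87402717, 82.5% to 55.7% at 87402721 and 81.3% to 55.96% at 87402722. Smoked WT and recovery sperm had means of 75.3% to 79.1%. In brain of sons the means were 73.5% and 76.8% after control and smoked WT sires and 75.9% and 73.6% after control and smoked Nrf2-/- sires, where 3 cytosines of the region were measured and the groups overlapped.

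At chr2:74358789-74358822, DNAme was higher in Nrf2-/- sperm. This region lies 1.32 Mb from Nfe2l2, at chr2:75675513-75704641, on the chromosome that carries the deleted gene, 51.1 kb from the long non-coding RNA gene 4930441J16Rik and 161 kb from Lnpk, which encodes an endoplasmic reticulum protein. Control WT libraries ran from 26.8% over 42.6% to 60%, control Nrf2-/- libraries from 52.6% over 78.9% to 85.1% and smoked Nrf2-/- libraries from 63.9% over 84.6% to 94.0%. The 1 control Nrf2-/- library at 52.6% fell among the control WT values, and smoked Nrf2-/- libraries lay above all of them. The differences were 32.4 points (SE 4.35, limma, adjusted p = 7.16e-07) and 37.6 points (SE 4.47, limma, adjusted p = 1.80e-08). In brain all 4 groups of sons had 94.6% to 96.8%. F1 sperm was available for WT sires only, with 55.3% ± 29.1 after control and 74.9% ± 11.9 after smoked sires (SD, n = 4 each).

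At chr2:71622671-71622750 and at chr6:11464817-11464845, a single cytosine carried most of the difference. The first, 4.05 Mb from Nfe2l2 and 75.9 kb from Dlx2, a homeobox gene of forebrain development, had 93.3% ± 2.56 (SD, n = 10) in control WT, 70.2% ± 3.01 (SD, n = 10) in control Nrf2-/- and 67.7% ± 4.88 (SD, n = 9) in smoked Nrf2-/- sperm (limma, smoked Nrf2-/- against control WT, adjusted p = 3.87e-23). The cytosine at 71622671 had 94.8% in control WT sperm, 0% in all 10 control Nrf2-/- libraries and 0.327% in smoked Nrf2-/- sperm. The other cytosines, at 71622724, 71622744 and 71622750, had 89.1%, 95.4% and 93.9% in control WT and 89.5%, 95.7% and 95.4% in control Nrf2-/- sperm. In brain, the cytosine at 71622671 had 55.6% ± 7.70 and 59.2% ± 4.45 in sons of control and smoked WT sires, and 36.5% ± 6.91 and 30.1% ± 5.96 in sons of control and smoked Nrf2-/- sires (SD, n = 8 each). The highest son of an Nrf2-/- sire, at 44.9%, lay below the lowest son of a WT sire, at 46.5%, and single cytosines were not tested. Whether the Nrf2-/- mice carry the reference CpG at 71622671 was not tested either. A changed base and a loss of DNAme there cannot be told apart.

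The chromosome 6 region, soft-masked throughout, lies 435 kb from Ndufa4, which encodes a mitochondrial respiratory chain subunit. It had 76.7% over a median of 89.6% to 100% in 6 control WT libraries and 33.3% over 43.8% to 77.8% in 8 control Nrf2-/- libraries (limma, adjusted p = 0.00149). The 4 smoked Nrf2-/- libraries with a value had 27.3%, 38.9%, 41.7% and 55.6% (limma, adjusted p = 0.000653). The cytosine at 11464834 went from 96.9% in control WT to 10.4% in control Nrf2-/- and 0% in smoked Nrf2-/- sperm. The cytosine at 11464817 had 87.2%, 57.7% and 55.1% in these groups, and that at 11464845 had 85.1%, 85.8% and 67.4%. WT recovery 3 sperm had 49.5% at 11464817, and its region values ran from 44.4% to 100% (n = 5), overlapping Nrf2-/- libraries. Smoked WT and recovery 1 and 2 sperm had region means of 86.0%, 89.5% and 89.3%. In brain the cytosine at 11464834 had 94.3% ± 6.38 (SD, n = 8) and 98.4% ± 3.03 (SD, n = 7) after control and smoked WT sires. After control and smoked Nrf2-/- sires it had 58.3% ± 20.97 (SD, n = 8) and 85.8% ± 23.99 (SD, n = 7). Whether the Nrf2-/- mice carry the reference CpG at this position was likewise not tested.

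**Figure D4:**
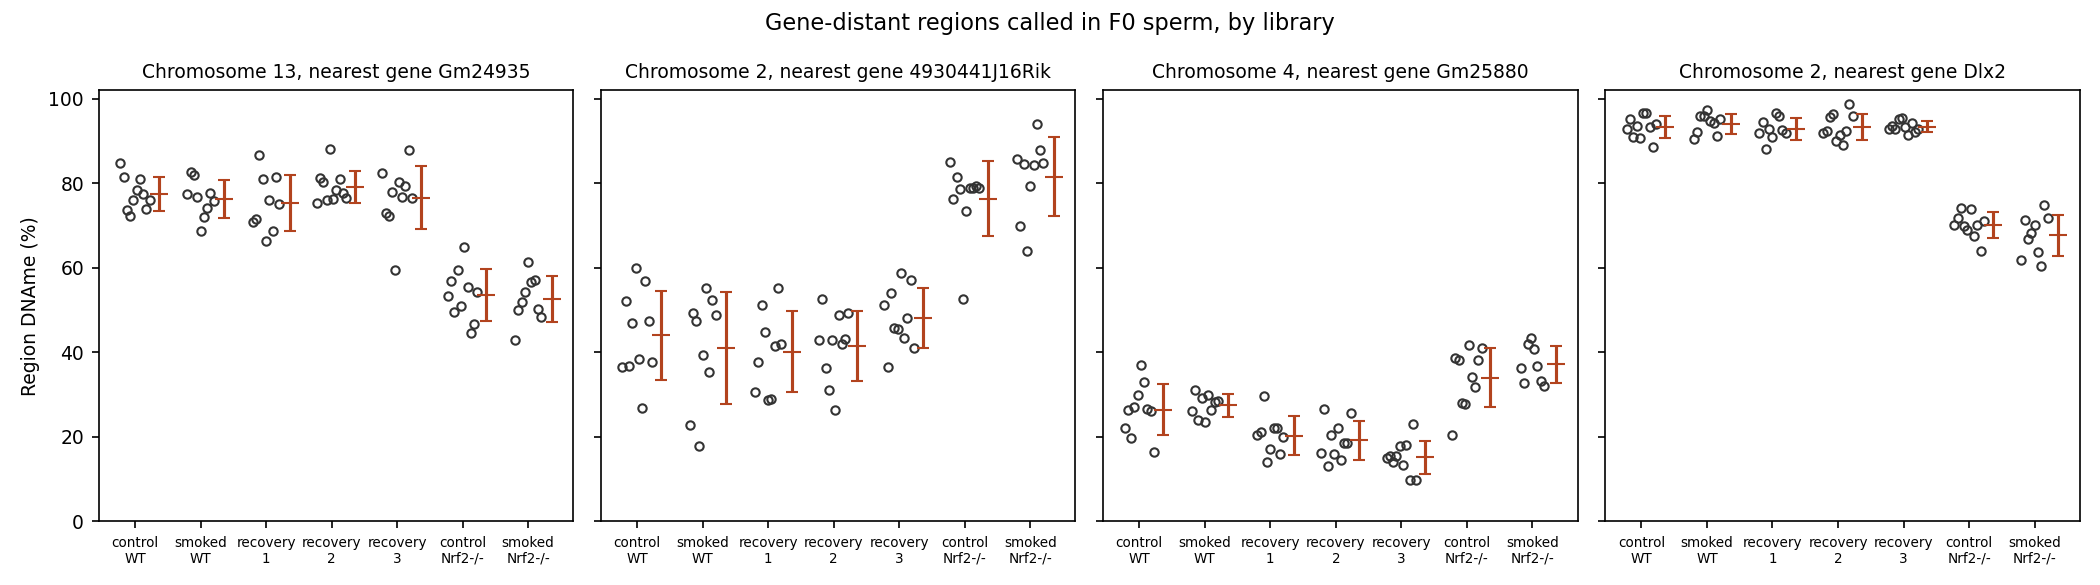
DNAme (y axis, %) of 4 gene-distant regions called in F0 sperm, by group and library (open circles, with a red bar for mean ± SD). Nrf2-/- libraries are lower at the chromosome 13 region (nearest Gm24935) and higher at the chromosome 2 region near 4930441J16Rik, recovery 3 is lowest at the chromosome 4 region (15.1%), and the chromosome 2 region near Dlx2 is at 70.2% and 67.7% in Nrf2-/- sperm.

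Further regions were among the 3 largest changes in their direction in 1 comparison. At chr1:152189414-152189503, 60.03 kb from a pseudogene, control Nrf2-/- sperm had 83.7% against 72.5% in control WT sperm (limma, adjusted p = 0.0136). At chr13:80394431-80394496, 98.5 kb from a pseudogene, it had 96.1% against 85.6% (adjusted p = 0.00315), and at chr2:99867313-99867379, soft-masked throughout and 192 kb from a pseudogene, 47.7% against 71.1% (adjusted p = 0.00645). At the latter region all groups of sons had 90.8% to 92.3% in brain. In smoked Nrf2-/- sperm, chr11:28203477-28203547, 136 kb from Gm6685, had 78.7% against 67.9% (adjusted p = 0.0108), and chr13:87668112-87668144, soft-masked throughout and 115 kb from a pseudogene, had 12.4% against 40.9% (limma, adjusted p = 0.0456, below 0.05 in 6 of 19 fits that left out 1 library). Brain of sons at this last region had 93.3% to 97.1%, far above any F0 sperm group. The region with the smallest p between smoked and control Nrf2-/- sperm, chr14:97145651-97145697, had 96.2% ± 3.10 and 86.1% ± 6.99 (SD, n = 9 each, limma, adjusted p = 0.214).

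Cytosines that were far lower in Nrf2-/- sperm sat on 3 chromosomes. Of 42486 gene-distant cytosines, 7 were more than 80 points lower in control Nrf2-/- than in control WT sperm, 4 on chromosome 13, 2 on chromosome 2 and 1 on chromosome 6, and none of the 35371 on other autosomes. Only 2 of the 7 lay in a region, those on chromosomes 2 and 6 described above. Whether Nrf2-/- mice carry the reference CpG at these 7 positions was not tested. None was more than 80 points higher. At more than 50 points, 10 cytosines were lower, all on these 3 chromosomes, and 10 were higher, 7 of them on other autosomes. Called regions of the whole table were likewise most numerous there, with 50 on chromosome 13, 40 on chromosome 2 and 32 on chromosome 6 of 312. The 29 called gene-distant regions were spread over 13 chromosomes. Chromosomes 13, 2 and 6 held 3, 5 and 2 of them, and chromosomes 14 and 15 held 4 and 3. In smoked Nrf2-/- sperm, chromosomes 13, 2 and 6 held 3, 6 and 3 of the 20 called gene-distant regions. Over all regions they held 40, 37 and 36 of the 258 called there. The change of the gene-distant mean was -0.846 points in control and -1.001 in smoked Nrf2-/- sperm without these 3 chromosomes (exact permutation p = 0.0625 and 0.0590). Without them the change of the repeat-rich regions was -2.76 and -2.41 points (exact permutation p = 0.000206 and 9.74e-05).

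Mean DNAme at gene-distant regions in F1 sperm did not differ between sires beyond the spread between libraries. F1 sperm of control WT sires ran from 48.9% over 52.3% to 56.1%, and that of smoked WT sires from 52.9% over 54.7% to 57.2%, means of 52.5% ± 2.59 (SD, n = 6) and 55.1% ± 1.70 (SD, n = 7). The difference of 2.59 points had an exact permutation p of 0.0542 (adjusted p = 0.154), and the gap to gene-near regions widened by 0.895 points (exact permutation p = 0.0402, adjusted p = 0.161). The values were also taken by cut site, a split chosen after seeing the data. CpGs within CCGG had 60.3% and 60.4%, while those within TCGA had 52.003% and 54.9% and those in neither 51.8% and 54.4% (exact permutation p = 0.664, 0.0624 and 0.0455, adjusted over 36 tests p = 0.920, 0.192 and 0.182). Of gene-distant region values, 13.3% were missing in F1 sperm against 6.09% in F0 sperm.

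No gene-distant region of F1 sperm was called (background 0%), and 207 of 2825 had an unadjusted p below 0.05 (7.33%, against 5.57% of all regions). By size alone, 704 regions changed (24.9%, background 15.5%), 607 higher and 97 lower. The smallest p was at chr3:46227600-46227609, 62.2 kb from a small nucleolar RNA gene, with 3.49% ± 1.30 (SD, n = 6) in sons of control and 8.49% ± 2.34 (SD, n = 7) in sons of smoked sires (limma, adjusted p = 0.850).

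In F1 brain, group means of gene-distant DNAme lay within 2 points of each other, and none of the 4 comparisons passed as planned. They were 76.4% ± 0.498, 77.1% ± 1.22, 76.8% ± 0.879 and 75.4% ± 1.31 (SD, n = 8 each), first for sons of WT sires without and with CS, then for sons of Nrf2-/- sires without and with CS. Against control WT sires the differences were 0.676, 0.432 and -1.03 points (exact permutation, adjusted p = 0.339, 0.419 and 0.154), and smoked against control Nrf2-/- sires differed by -1.46 points (adjusted p = 0.154). The latter passed in a pair of alternatives chosen after seeing the data, at -1.46 points with runs of facility numbers as a block (exact permutation, adjusted p = 0.0185) and at -1.84 points over regions longer than 50 bp (adjusted p = 0.0348). The change with smoke differed between the genotypes of the sires, at 0.676 points for WT and -1.46 points for Nrf2-/- sires, a difference of -2.14 points (permutation of smoke labels within genotype, p = 0.00521, adjusted over 4 tests p = 0.0208). The gap to gene-near regions showed no such difference, at 0.154 points (permutation p = 0.590), and gene-near regions stood at 50.8%, 51.5%, 51.3% and 49.7% in the 4 groups. In F0 sperm the same difference of smoke changes was 0.465 points (permutation p = 0.550). By cut site, smoked against control Nrf2-/- sires differed by -3.43 points at CCGG, -0.511 at TCGA and -1.32 at other CpGs of brain (exact permutation, adjusted over 36 tests p = 0.142, 0.668 and 0.0559). Sons of Nrf2-/- sires were all Nrf2+/- and carried lower facility numbers than sons of WT sires. Sire genotype, sire stock, the sons' own genotype and that run of numbers therefore cannot be told apart. Tests between groups of sons took sons as independent, since sires and litters could not be matched to the values.

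In brain, sons of control Nrf2-/- and of control WT sires differed past the test at neither kind of region, but the changes were unequal. Repeat-rich gene-distant regions (1737) had 87.1% ± 0.390 in sons of control WT and 87.0% ± 0.910 in sons of control Nrf2-/- sires (-0.0712 points, exact permutation p = 0.840), and the other regions differed by 0.691 points (p = 0.0931 by the same exact test, adjusted over 24 tests p = 0.262). The change at repeat-rich regions was lower than that at the others by -0.762 points (exact permutation p = 0.00342, adjusted over 12 tests p = 0.0137). For smoked Nrf2-/- against control WT sires this difference ran the other way, at 0.388 points (exact permutation p = 0.278, adjusted p = 0.370). Over the 3336 other regions, sons of smoked Nrf2-/- sires had 69.7% ± 1.49 against 71.5% ± 0.899 in sons of control Nrf2-/- sires, -1.83 points (exact permutation p = 0.00544, adjusted over 24 tests p = 0.0435). Gene-near regions with few repeats differed by -1.69 points (exact permutation, unadjusted p = 0.0109), and gene-near regions as a whole by -1.61 points, which did not pass (exact permutation, adjusted p = 0.131). The change with smoke at repeat-rich regions was higher by 1.15 points (exact permutation p = 0.00497, adjusted over 12 tests p = 0.0149). Gene-distant minus gene-near repeat-rich regions changed by -0.0589 points for control Nrf2-/- against control WT sires (exact permutation p = 0.535, adjusted p = 0.850). For smoked against control Nrf2-/- sires they changed by 0.105 points (exact permutation p = 0.296, adjusted p = 0.743), so neither passed.

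No gene-distant region of brain was called in any comparison. The background was 0.00176% for smoked WT sires, 0.015% for control Nrf2-/- sires and 0.0238% for smoked Nrf2-/- sires against control WT sires, and 0% for smoked against control Nrf2-/- sires. At an unadjusted p below 0.05, 237, 290, 420 and 422 of 5073 gene-distant regions passed (4.67%, 5.72%, 8.28% and 8.32%), against 4.31%, 8.21%, 10.4% and 8.97% of all regions. By size alone, 526 (10.4%, background 10.3%), 533 (10.5%, background 9.69%), 729 (14.4%, background 14.6%) and 821 (16.2%, background 16.7%) changed, shares close to those of all regions. The smallest p values belonged to 3 regions. At chr10:125839593-125839624, 127 kb from Lrig3, which encodes a membrane protein of growth factor signalling, sons of control WT sires ran from 1.85% over 16.1% to 25% and the 5 sons of smoked WT sires with a value from 30.3% over 40.7% to 42.9%, without overlap (limma, adjusted p = 0.359). At chr5:33512682-33512795, 75.2 kb from a long non-coding RNA gene, sons of smoked Nrf2-/- sires had 30.7% ± 11.7, against 53.01% ± 8.19 in sons of control WT and 51.7% ± 9.04 in sons of control Nrf2-/- sires (SD, n = 8 each, limma, adjusted p = 0.0722 and 0.188). The region on chromosome 6 described above had 95.7% ± 3.03 and 83.6% ± 5.99 in sons of control WT and control Nrf2-/- sires (limma, adjusted p = 0.235).

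Brain and sperm of sons differed at most gene-distant regions. Of 1732 gene-distant regions built from cytosines measured in all 3 tissue sets, 1258 (72.6%) were called between control F1 brain and control F1 sperm, against a background of 52.4% of all 42450 regions, 781 higher and 477 lower in brain. Those higher made up 62.1% of the called gene-distant regions and 61.4% of all called regions. Over these regions control F0 sperm had 71.4% ± 0.858, control F1 sperm 65.9% ± 3.96 and control F1 brain 76.4% ± 0.312. The mean change from sperm to brain of sons was 10.5 points, against 6.35 points at gene-near regions, and the difference of 4.15 points had the smallest exact permutation p these libraries can give (0.000333). More than 50 points higher in brain were 215 gene-distant regions (12.4%) and more than 50 points lower 33 (1.91%), against 8.06% and 1.88% of all regions. Regions unmethylated in sperm were often methylated in brain, and of 285 gene-distant regions below 25% in control F1 sperm, 137 (48.1%) were above 75% in brain, against 9.54% of the gene-near regions below 25%.

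The largest changes upward ran from nearly 0% to over 90%. At chr14:114636080-114636177, 9 cytosines 185 kb from the nearest gene, control F0 sperm ran from 0.781% to 3.82%, control F1 sperm from 0.984% to 2.04% and control F1 brain from 93.5% to 96.6%. At chr19:15341328-15341347, 339 kb from a small nuclear RNA gene, the means were 2.32% (n = 10), 0.893% (n = 4) and 94.0% (n = 8), and at chr14:58517234-58517268, 133 kb from a small nucleolar RNA gene, 0.342% (n = 10), 1.32% (n = 5) and 94.3% (n = 8). At these 3 regions no control sperm library exceeded 15% and no control brain library fell below 88.9%. The largest changes downward were at chr12:92093180-92093221, 67.7 kb from a pseudogene, from 99.1% (n = 4) in control F1 sperm to 19.2% ± 6.01 (SD, n = 8) in brain, at chr1:40968218-40968303, 104 kb from a pseudogene, from 93.2% (n = 4) to 14.99% ± 6.30 (SD, n = 8), and at chr13:72288973-72288993, from 84.7% ± 7.92 (SD, n = 6) to 7.62% ± 2.14 (SD, n = 8). The last lies 61.2 kb from a pseudogene and 325 kb from Irx1, a homeobox gene of tissue patterning, and had 80.6% ± 7.08 (SD, n = 10) in control F0 sperm. All 6 had limma adjusted p-values of 6.33e-17 or less.

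**Figure D5:**
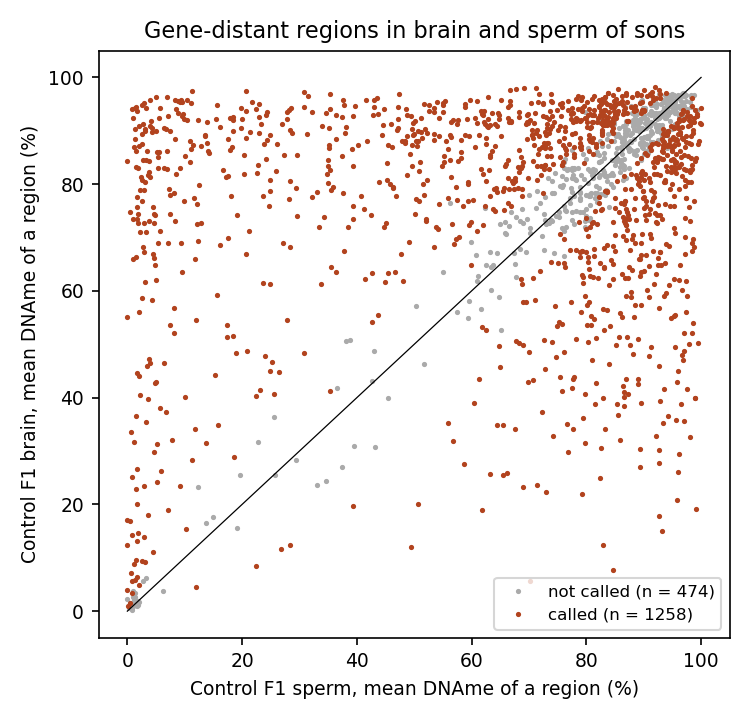
Mean DNAme of each of 1732 gene-distant regions in control F1 sperm (x axis, %) and control F1 brain (y axis, %), with regions called by limma in red (n = 1258), the others in grey, and a line of equal levels. Points above the line at the left edge are the regions below 25% in sperm, of which 137 of 285 lie above 75% in brain.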

How the data were processed

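RRBS libraries of mouse sperm and prefrontal cortex were used as 13 deposited tables of CpG positions, which hold percent DNAme per library and, per the submitters' processing notes, were made with Bismark on mm10. The authors' percent values carry no read counts, so depth is unknown and no counting interval was given; 0 columns went unused. Columns carry facility library numbers that match no single sample, so groups came from the table named in each sample's description. In 1 sample of F1 brain of control WT sires the strain label read Nrf-/- against its WT title, and the title was used. Replicates were separate samples by label, and p-values measure only the spread between them. Sires and litters of sons could not be matched to the columns, so any sons that shared a sire were counted as independent. The most alike libraries of a group were identical at 66.964% of shared positions, so none was counted as a copy.

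Cytosines with a value in at least 4 libraries of every group of a tissue set were joined (at most 100 bp, 3 or more). A library's region value was the mean of its cytosines, adjusted for missing ones by each cytosine's mean over groups, where at least 50% had a value, and means over regions were adjusted for missing regions in the same way. GENCODE vM21 genes set the distance. limma 3.58.1 (R 4.3.3) was fitted on the percents of all regions of a tissue set, all groups together, with a variance trend and Benjamini-Hochberg adjustment, and contrasts needed 4 libraries in both groups. Means over regions were compared by exact two-sided permutation of libraries (Python 3.11.15, NumPy 2.4.6, SciPy 1.17.1), adjusted over the family named. Similar sequence was found with blastn 2.17.0. The procedures were tested on simulated data. Regions were named by rule: in each comparison the called regions with the largest change, up to 3 higher and 3 lower, or else the smallest p; in F0 sperm the 2 farthest from a gene, the 2 with most cytosines and the 2 with the largest control SD; and 3 each way between brain and sperm. The regions, lists and comparisons were chosen with earlier results of these data known. Alternatives changed the scale, the joining distance, the gene distance and annotation, the groups in the model and the libraries.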

Additional observations from a re-analysis of the deposited data

Results flagged for a closer look

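Within each group of 4 to 10 libraries, single libraries far from the rest were looked for in the means and at the named regions, with Dixon's test at the 95% level, which marks about 1 in 20 groups by chance; 9 of 65 groups were marked. In smoked WT F0 sperm, 1 library had a gene-distant mean of 62.6% against 66.1% to 68.01% in the others, and its gap to gene-near regions, 22.4 points, was also apart from the 23.7 to 24.7 points of the others. In smoked Nrf2-/- F0 sperm, 1 library had a gene-distant mean of 63.6% against 65.3% to 67.1%. At chr2:133742213-133742250, 1 recovery 1 library had 90% against 97.6% to 100%. At chr2:74358789-74358822, 1 control Nrf2-/- library had 52.6% against 73.4% to 85.1%. At chr13:80394431-80394496, 1 control Nrf2-/- library had 89.0% against 94.5% to 100%. At chr11:28203477-28203547, 1 smoked Nrf2-/- library had 84.9% against 75.4% to 79.95%, and 1 control WT library had 53.5% against 64.7% to 77.2%. At chr6:11464817-11464845 in brain, 1 son of a control Nrf2-/- sire had 96.2% against 77.8% to 86.4%.

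The change of gene-distant DNAme with smoke in F1 brain differed between sire genotypes by -2.14 points (permutation p = 0.00521, adjusted p = 0.0208).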

How the results depend on the processing

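By the labels' replicate numbers no paired analysis was possible because the columns carry facility library numbers that match no replicate number of the labels. Runs of 5 of these numbers in WT F0 sperm and of 4 in brain each held the groups compared, though no label names them a batch, and the deviations of libraries of 1 run had a median r of 0.00327 and 0.0224 over regions. With these runs as a block, chosen after seeing the data, smoked against control Nrf2-/- sires in brain passed at -1.46 points (exact permutation p = 0.00154, adjusted p = 0.0185), and no other call of the 6 comparisons changed. Read depth limits every value to an unknown degree. The cause of the changes below was not tested, except that fewer regions or libraries enter many settings.

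Soft-masked gene-distant regions kept their difference between Nrf2-/- and control WT sperm in all 10 other settings and 39 leave-one-out settings. The gap to gene-near regions lost its genotype difference with windows at most 50% soft-masked, at -0.173 points (exact permutation p = 0.409) in control and -0.250 (p = 0.329) in smoked Nrf2-/- sperm, and kept it in each leave-one-out setting. With regions longer than 50 bp, 3 mean differences passed (adjusted p = 0.0348 each), at -1.05 points in control and -0.952 in smoked Nrf2-/- sperm and -1.84 in brain for smoked against control Nrf2-/- sires. Differences that never passed changed sign. For the mean these were smoked against control Nrf2-/- sperm at 0.0403 (over 100 kb) and 0.0944 (over 50 bp) and recovery 3 at -0.0420 (over 50 bp). Leaving out 1 library gave -0.318 to 0.111 for recovery 2, -0.0694 to 0.314 for recovery 3 and -0.343 to 0.140 for smoked against control Nrf2-/- sperm. For the gap in brain, smoked WT sires gave 0.197 with complete regions, 0.0533 over 100 kb, 0.00370 with RefSeq, 0.0580 over 50 bp and 0.104 with few masked bases. Control Nrf2-/- sires gave 0.0744, 0.0126 and 0.107 with complete regions, over 50 bp and with few masked bases, smoked Nrf2-/- sires -0.0478 and -0.0372 in the latter pair, and smoked against control Nrf2-/- sires -0.0603 and -0.144. With few masked bases, recovery 1 gave 0.0266 and smoked against control Nrf2-/- sperm -0.0767. Leaving out 1 library gave -0.0111 to 0.145 for recovery 3 and, in brain, -0.0715 to 0.0506, -0.162 to 0.0251 and -0.0535 to 0.217 for sons of smoked WT sires and of Nrf2-/- sires without and with CS.

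Counts by size moved by over 1.5 times in 19 settings and not in 17, counts of called regions in 8 and not in 94, and the latter without 1 library in 20 and not in 193. Fitting only the 2 groups gave 14 for control and 6 for smoked Nrf2-/- sperm, and joining at most 300 bp gave 48 and 32, and in brain 3 and 1 for control and smoked Nrf2-/- sires. Shares over all regions were not taken at these settings, and joining at most 300 bp makes another set of regions. Recovery 3 gave 0 with 2 groups and 0 with plain means. Without 1 library the counts were 21 to 38 for control and 12 to 21 for smoked Nrf2-/- sperm (12 without smoked Nrf2-/- library 6), 0 to 1 for recovery 3, smoked against control Nrf2-/- sperm, and brain of control and of smoked against control Nrf2-/- sires, and 0 to 2 for smoked Nrf2-/- sires. The chromosome 4 region of recovery 3 was below an adjusted p of 0.05 in 8 of 24 settings (range 0.0138 to 0.281, limma). With a change over 10 points, counts by size were 63, 103, 64, 134, 215, 174 and 120 in F0 sperm, 197 in F1 sperm and 72, 74, 171 and 209 in brain, in the order of the report. Cytosines in 6 libraries of each group gave 258, 296, 235 and 351 for smoked WT and recovery 1 to 3, 340 for smoked against control Nrf2-/- sperm, 225 in F1 sperm and 337 for smoked WT sires in brain. Shares over all regions were not taken for these counts by size either. For the spread, regions over 100 kb gave gene-distant minus gene-near -0.178 (F0 sperm, 25% to 75%), -1.12 (F1 sperm, 25% to 75%), -0.0526 (F1 sperm, above 75%) and -0.122 (brain, above 75%), and protein-coding genes only gave -0.826 (F1 sperm, 25% to 75%) and -0.0667 (brain, above 75%). The F1 sperm value at 25% to 75% and the brain value above 75% passed in both settings (exact permutation, adjusted p = 0.0375 each over 100 kb, 0.0375 and 0.0134 with protein-coding genes), unlike the values of the report.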
